A study of Homo sapiens with 38 samples.

Results

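Gene expression in human embryonic stem cells cultured for 6 days in mTeSR was compared with that in the same cells cultured for 6 days in E8. The libraries were chosen by their labels, as those of mTeSR at day 6 on Geltrex and of E8 at day 6 on Geltrex, 2 of each, which makes 4 of the 38 libraries of the series. The cells were naive Shef6, an established embryonic stem cell line, adapted to growth on a serum coating without feeder cells in PXGL, a medium that holds the naive state. They had been dissociated and seeded on Geltrex, a basement membrane matrix, directly in E8 or mTeSR with a ROCK inhibitor, which was taken away from day 1, so that cells of both media had left PXGL and shared the matrix and the inhibitor. The series follows capacitation, the passage of naive cells towards competence for germ layer formation, in these media and in N2B27 basal medium. E8 and mTeSR are commercial media for primed pluripotent cells, and both supply FGF and a TGFβ/Activin-type signal, whereas unsupplemented N2B27 supplies neither. Which formulation of mTeSR was used is not given in the sources used here. All libraries came from a single cell line and, for the media compared here, a single experiment.

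Cells that leave naive pluripotency become responsive to NODAL, WNT and BMP, the signals that pattern the epiblast and induce the primitive streak, where mesoderm and endoderm arise. NODAL and WNT induce their own inhibitors, such as LEFTY proteins and CER1, which makes these genes common readouts of the pathways. Cultured cells also show their nutrient and oxygen supply in their transcripts. HIF factors switch on glycolytic enzymes and oxygen sensors when oxygen is low, MLX-family factors switch on TXNIP when glucose metabolites are plentiful, and the zinc sensor MTF1 switches on metallothioneins, small proteins that bind zinc and copper.

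RNA was read with QuantSeq, in which each polyadenylated transcript gives reads near its 3′ end. The 4 libraries held 4180778 and 4424268 counts in E8 and 4430286 and 4554903 counts in mTeSR, within the 3038046 to 5612354 counts of the series. Levels are in CPM, that is, counts divided by the scaled library total and set to the same total everywhere, and always for replicate 1 before replicate 2. Replicates are parallel libraries of the same experiment and may be technical, so that p-values measure only the spread between such libraries. In both media the 2 libraries were nearest to each other. They differed by more than counting noise (chi-square per degree of freedom of 1.34 in E8 and 1.87 in mTeSR), so that neither was a copy of its partner. Such values cannot tell technical replicates from separate cultures. The 7 pluripotency markers checked, such as POU5F1, NANOG and SOX2, summed to between 3400 and 3540 CPM in all 4 libraries, and none of them passed the test between the media. Counts from mitochondrial genes made up 2.78% and 2.79% in E8 and 2.25% and 2.11% in mTeSR.

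A gene was called when its adjusted p-value (edgeR quasi-likelihood test, Benjamini-Hochberg) was under 0.05 and its log2 fold change was above 1 in size. At day 6, 184 of 16674 genes tested were called between mTeSR and E8, a share of 1.10%. Of these, 105 were higher in mTeSR (0.630% of genes tested) and 79 were lower (0.474%). With no threshold on size, 444 genes had an adjusted p under 0.05 (2.66%), 230 higher (1.38%) and 214 lower (1.28%). The median log2 fold change was 1.51 among the genes that were higher and -1.47 among those that were lower, and the 2 libraries of one medium did not overlap those of the other for any of them, as was the case for 52.1% of all genes tested. The called genes that were higher had a median level of 14.7 CPM in mTeSR and reached 1020 CPM, and those that were lower had a median of 17.7 CPM in E8. The low medium was at or under the floor of 3 counts per library for 11 of the higher and 3 of the lower genes. The floor covers counting error only, since these reads carry no molecular identifiers. The number of calls rested on having 2 libraries per medium: it was 115 without mTeSR replicate 1, 104 without mTeSR replicate 2, 117 without E8 replicate 1 and 106 without E8 replicate 2.

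**Figure D1:**
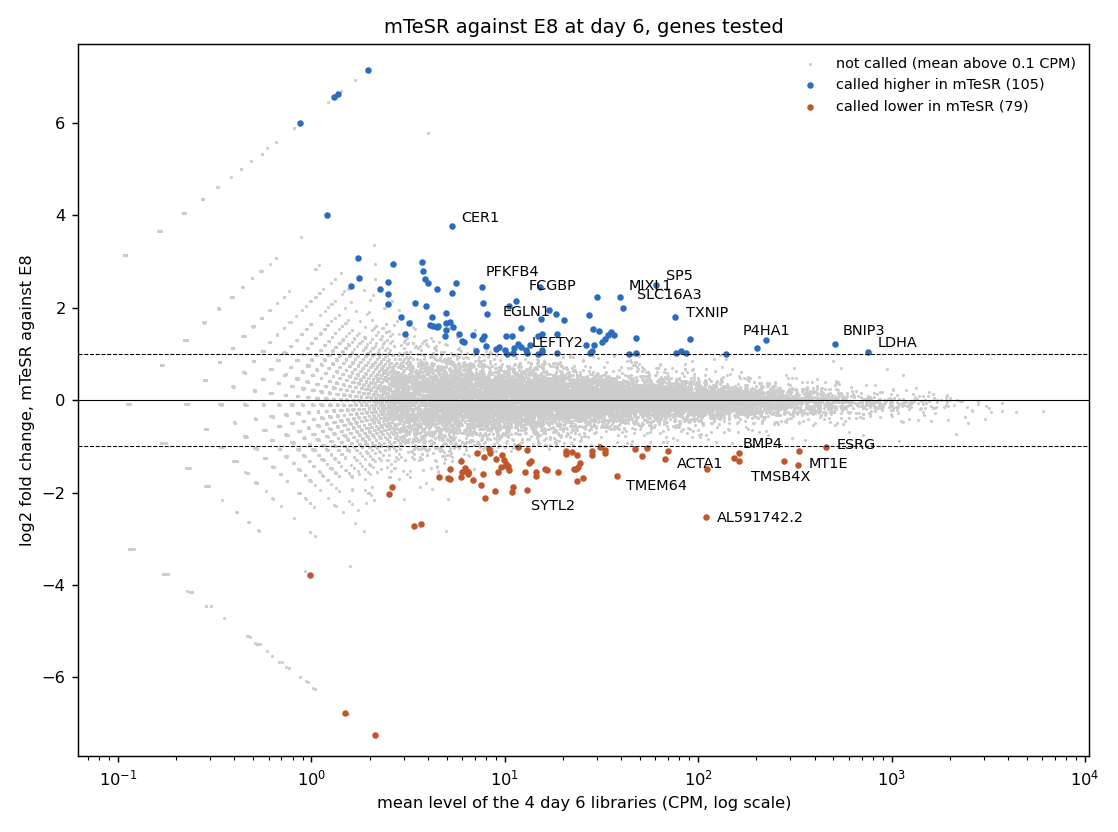
Mean level of each gene over the 4 day 6 libraries (CPM, log axis) against its log2 fold change in mTeSR over E8 (y axis). Blue points are the 105 genes called higher in mTeSR, orange points the 79 called lower, grey points other genes, and the dashed lines mark a log2 fold change of 1 in either direction; 31 blue and 8 orange points lie beyond 2 on the log2 scale, and those farthest from 0 are scarce genes at or near 0 CPM in one medium.

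The largest rise among well-expressed genes was that of SP5 (GRCh38 chr2:170715337-170718078, plus strand), a zinc-finger factor induced directly by WNT through β-catenin and TCF. Its levels were 18.1 and 18.4 CPM in E8 and 96.4 and 108 CPM in mTeSR. Both mTeSR libraries stood far above both E8 libraries, by a log2 fold change of 2.48 (SE 0.242, adjusted p = 3.70e-08). SP8, a related zinc-finger factor, measured 8.69 and 8.2 CPM in E8 and 21.9 and 23.3 CPM in mTeSR, and was called as well (log2 1.42, adjusted p = 0.000305). AXIN2, the most widely used readout of WNT signalling, was at 19.6 and 22.5 CPM in E8 and at 39.4 and 39.9 CPM in mTeSR. Its adjusted p was 0.0109 and its groups did not overlap, but at a log2 fold change of 0.91 it stayed under the threshold on size. These were the 3 of 14 tested WNT targets with an adjusted p under 0.05, against 1.38% of all genes tested that were higher at this limit. The median of the list was 0.51, beside 0 for all genes tested. TCF7, NKD1, ZNRF3 and CCND1 had fold changes between -0.26 and 0.20. None of 23 tested WNT ligands, receptors and other components was called (median 0.04), beside 1.10% of all genes tested.

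The 160 bases before the SP5 start site in RefSeq (GRCh38.p14, chr2:170715177-170715336, plus strand) are shown because SP5 led the comparison and this stretch carries letters that TCF factors are known to bind. Capitals mark CTTTGAT and CTTTGAA on either strand, which lie 148, 109 and 84 bases before the start.
SP5: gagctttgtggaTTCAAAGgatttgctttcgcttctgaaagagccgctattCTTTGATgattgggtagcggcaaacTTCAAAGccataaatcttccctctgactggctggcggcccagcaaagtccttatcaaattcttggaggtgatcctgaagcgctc
In windows from 250 bases before to 50 bases after the start, CTTTGAT was found on either strand in 2.62% of 35116 RefSeq promoter windows and CTTTGAA in 4.43%. Over the whole list of WNT targets, CTTTGAA was in 4 of 14 windows (28.6%) and CTTTGAT in 1 of 14 (7.14%). Of the called ones, SP5 and SP8 both held CTTTGAA, and SP5 held the only CTTTGAT. A match describes the letters and is not evidence of binding.

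Of 13 tested genes of the primitive streak and mesoderm, 2 were called, both higher in mTeSR, beside 0.630% of all genes tested that were called higher. MIXL1, a homeobox factor of the streak and of nascent mesendoderm, was at 14.7 and 13 CPM in E8 and at 64.8 and 64.4 CPM in mTeSR, a log2 fold change of 2.22 (SE 0.216, adjusted p = 3.70e-08). EOMES, the T-box factor that precedes mesoderm and definitive endoderm, measured 5.07 and 6.15 CPM in E8 and 15.0 and 14.4 CPM in mTeSR (log2 1.39, adjusted p = 0.0105). For both genes the mTeSR libraries lay wholly above the E8 libraries. The median of the list was 1.39 and 12 of the 13 values were positive, beside 8290 positive and 8336 negative values over all genes tested. TBXT, the founding T-box factor of the streak, was at 29.7 and 27.1 CPM in E8 and at 38.1 and 49.6 CPM in mTeSR. The groups did not overlap, but its log2 fold change of 0.63 did not pass the test (adjusted p = 0.125). LHX1, a homeobox factor of anterior mesendoderm, had 3.86 and 3.42 CPM in E8 and 9.51 and 11.2 CPM in mTeSR, with a log2 fold change of 1.5 that missed the threshold (adjusted p = 0.0524) and passed it under 6 of 14 other settings. The call of EOMES was lost without any single one of the 4 libraries (adjusted p of 0.165 and 0.0814 without E8 replicates 1 and 2, and of 0.0835 and 0.0687 without mTeSR replicates 1 and 2).

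Of 13 tested genes of endoderm or hypoblast, 4 were called, all higher in mTeSR and all scarce in E8, beside 0.630% of all genes tested that were called higher. CER1, a secreted inhibitor of NODAL, BMP and WNT that is made by anterior endoderm, was at 0 and 1.37 CPM in E8 and at 12.4 and 7.54 CPM in mTeSR (log2 3.77, SE 0.519, adjusted p = 6.80e-05). Its fitted log2 fold change ranged from 2.84 without E8 replicate 1 to 8.47 without E8 replicate 2, since 1 of the E8 libraries was at 0. FOXA2, a forkhead factor of endoderm, was at 0.242 and 0 CPM in E8 and at 1.99 and 2.59 CPM in mTeSR. SOX17, an SRY-box factor of endoderm and germ cells, was at 0.725 and 0.683 CPM in E8 and at 3.54 and 4.10 CPM in mTeSR. In each case no E8 library reached either mTeSR library. Since FOXA2 was under the floor of 3 counts in both E8 libraries, only a bound can be given, of at least 3.25-fold (adjusted p = 0.00893). SOX17 was at the floor itself in both E8 libraries, so that its fitted log2 fold change of 2.40 (adjusted p = 0.00541) is uncertain. Together with BMP2, which is described with the BMP genes, these were the 4 genes called, and the list had 9 positive and 4 negative values with a median of 0.71. GATA4, GATA6, HNF4A and HHEX had fold changes between 0.60 and 0.83 that did not pass the test, and neither did PDGFRA, at -1.04, or APOA2, at -2.37 (adjusted p = 0.701), which was at 0 and 0.228 CPM in E8 and at 0 CPM in both mTeSR libraries. The summed level of 5 endoderm markers, 2 of which are FOXA2 and SOX17, was 8.69 and 5.69 CPM in E8 and 13.9 and 19 CPM in mTeSR. In bulk RNA, more cells of a type and more RNA per cell cannot be told apart. Of the 4 calls, that of CER1 held when any of the 4 libraries was left out. The call of FOXA2 was lost without E8 replicate 2 (adjusted p = 0.188) or mTeSR replicate 2 (0.0897), and with DESeq2 (0.132). The call of SOX17 was lost without E8 replicate 1 (0.0701), E8 replicate 2 (0.0978) or mTeSR replicate 2 (0.0662).

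**Figure D2:**
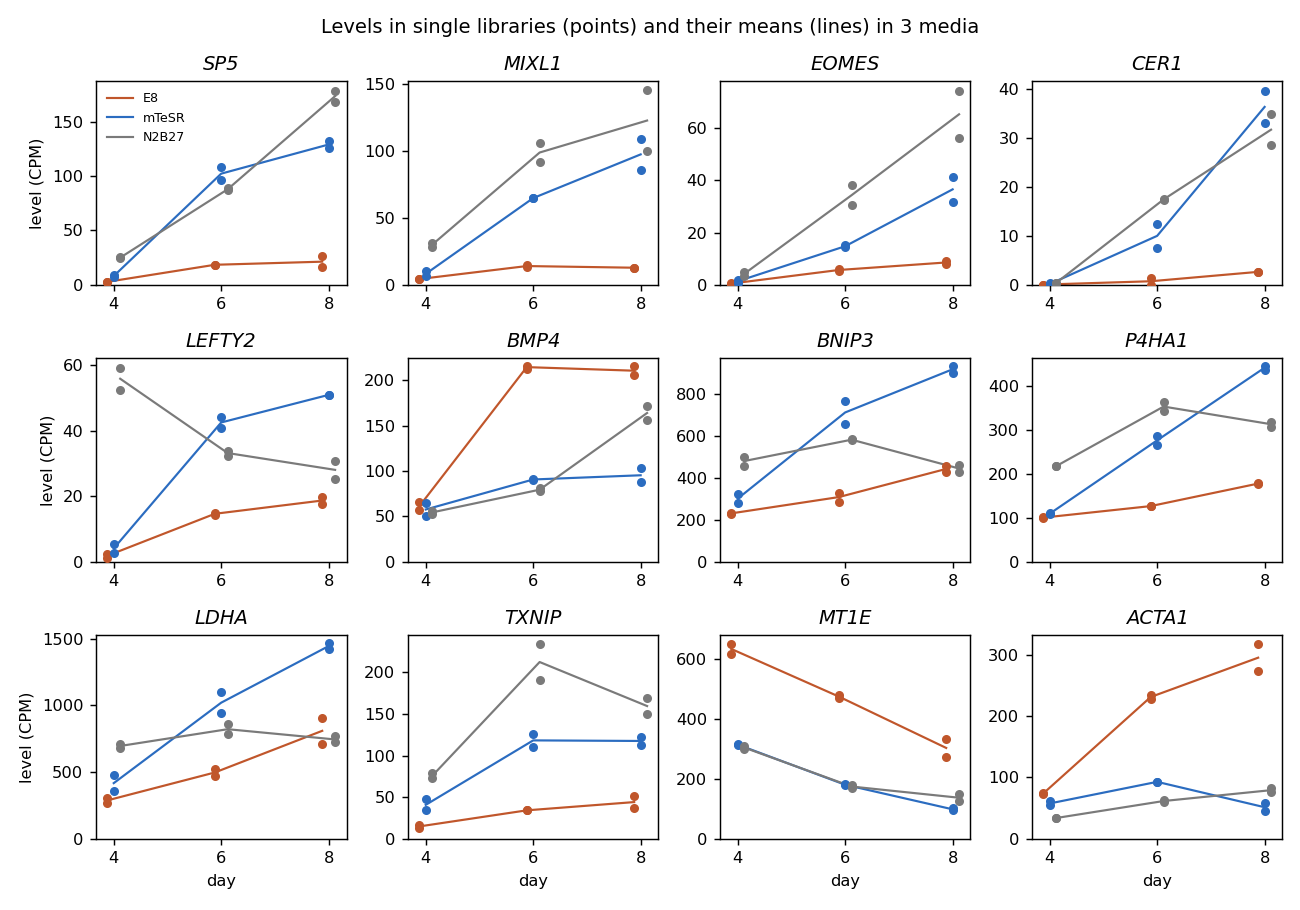
Levels of 12 genes (CPM, linear axes from 0) in E8 (orange), mTeSR (blue) and N2B27 (grey) at days 4, 6 and 8; points are single libraries and lines join the means of 2. At day 6 the mTeSR points lie above the E8 points for SP5, MIXL1, EOMES, CER1, LEFTY2, BNIP3, P4HA1, LDHA and TXNIP and below them for BMP4, MT1E and ACTA1.

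The NODAL pathway itself differed at a few genes. LEFTY2, a secreted NODAL inhibitor induced by NODAL, was at 14.3 and 15.0 CPM in E8 and at 40.9 and 44.2 CPM in mTeSR (log2 1.54, adjusted p = 0.000618). LEFTY1, its near-identical neighbour, was at 94.4 and 102 CPM in E8 and at 111 and 122 CPM in mTeSR, and did not pass the test (log2 0.24, adjusted p = 0.587). Reads of these paralogs could be split between them by the quantification, so that their separate values are uncertain. NODAL measured 151 and 158 CPM in E8 and 185 and 173 CPM in mTeSR (log2 0.21, adjusted p = 0.611). INHBA, which encodes the subunit of Activin A, went the other way, with 12.3 and 15.9 CPM in E8 and 3.32 and 3.88 CPM in mTeSR (log2 -1.97, adjusted p = 0.000739). Of 19 tested members of the list, LEFTY2 and CER1 were called higher and INHBA lower, against 0.630% and 0.474% of all genes tested, and the median was 0.08.

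BMP ligands differed in opposite directions. BMP4 (GRCh38 chr14:53949736-53958761, minus strand), the ligand that drives mesoderm, amnion and trophoblast programmes in pluripotent cells, was at 216 and 213 CPM in E8 and at 91.4 and 89.9 CPM in mTeSR. The libraries of each medium lay close together and far from the other medium, with a log2 fold change of -1.24 (SE 0.130, adjusted p = 1.20e-07). BMP2 was at 0 and 0.683 CPM in E8 and at 2.65 and 3.66 CPM in mTeSR, at least 4.49-fold higher in mTeSR (adjusted p = 0.00234). NOG, which encodes the BMP inhibitor Noggin, was at 1.45 and 2.28 CPM in E8 and at 6.86 and 6.25 CPM in mTeSR (log2 1.79, adjusted p = 0.0138). The direct BMP targets ID1 and ID3 had log2 fold changes of 0.02 and 0.21, and no BMP target passed the test, so that the 3 calls among 17 tested genes were 2 ligands and 1 inhibitor (median 0.17), against 1.10% of all genes tested that were called. GATA3, a factor of trophectoderm and amnion, was at 28.7 and 28.9 CPM in E8 and at 12.8 and 12.7 CPM in mTeSR (log2 -1.17, adjusted p = 0.00272), and was the only one called of 11 tested trophectoderm genes (median 0.02), against 0.474% of all genes tested that were called lower. The trophectoderm marker VGLL1 had 0 counts in all 4 libraries, and the sum of 6 trophectoderm markers, GATA3 among them, was 42.0 and 44.4 CPM in E8 and 28.5 and 31.3 CPM in mTeSR. The call of BMP2 was lost without E8 replicate 1 (adjusted p = 0.107) or mTeSR replicate 2 (0.0549), and that of GATA3 without mTeSR replicate 1 (0.0501) or 2 (0.0581). The call of NOG was lost without any one of the 4 libraries (0.0733 to 0.227) and with DESeq2 (0.0937).

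No pluripotency marker was called, beside 1.10% of all genes tested, a share at which lists of this size may hold no call. The lists held 12 general, 19 naive and 16 primed and formative markers, all tested, with medians of 0.13, 0.09 and -0.02. POU5F1 was at 485 and 524 CPM in E8 and at 410 and 392 CPM in mTeSR, and NANOG at 956 and 925 CPM in E8 and at 1084 and 1121 CPM in mTeSR. Neither passed the test (adjusted p of 0.684 and 0.321), although the libraries of the media did not overlap for either gene. Both had an adjusted p under 0.05 in at least 1 other setting. Over the settings the log2 fold change ran from -0.386 to -0.275 for POU5F1 and from 0.205 to 0.269 for NANOG. Within the naive list, NLRP7, TBX3 and DNMT3L had an adjusted p under 0.05, beside 1.38% of all genes tested that were higher at this limit. They were higher in mTeSR by 0.68, 0.71 and 0.66 on the log2 scale, under the threshold on size. The lowest value of the list was -1.59 and did not pass the test. NLRP7, a maternal-effect gene abundant in naive cells, was at 759 and 692 CPM in E8 and at 1159 and 1161 CPM in mTeSR. KLF4 and TFCP2L1 had log2 fold changes of -0.52 and -0.25 and did not pass the test. Among FGF and ERK targets no gene was called (18 tested, median -0.10). DUSP4 and ETV5 had an adjusted p under 0.05 with values of -0.69 and -0.59, beside 1.28% of all genes tested that were lower at this limit.

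Genes of the response to low oxygen and of glycolysis formed the largest listed group that was higher in mTeSR. Of 14 tested genes of the low-oxygen response, 6 were called higher and none lower, beside 0.630% of all genes tested, and the median was 0.81. BNIP3, a mitophagy receptor induced by HIF, was at 330 and 288 CPM in E8 and at 657 and 768 CPM in mTeSR (log2 1.21, SE 0.127, adjusted p = 1.20e-07). P4HA1, a prolyl hydroxylase of collagen, was at 127 and 127 CPM in E8 and at 266 and 288 CPM in mTeSR (log2 1.13, SE 0.0947, adjusted p = 2.70e-09). EGLN1, the oxygen sensor that marks HIF-1α for degradation and is itself a HIF target, was at 11.1 and 7.51 CPM in E8 and at 27.7 and 34.5 CPM in mTeSR (log2 1.74, adjusted p = 6.86e-05). In all 3 genes both mTeSR libraries were above both E8 libraries by a margin wider than the gap between replicates. PDK1, the kinase that keeps pyruvate out of mitochondria, was at 20.3 and 17.3 CPM in E8 and at 47.6 and 51.9 CPM in mTeSR (log2 1.41, adjusted p = 3.50e-05). The mitophagy receptor BNIP3L and the collagen hydroxylase P4HA2 were called with log2 fold changes of 1.06 and 1.02. KDM3A, NDRG1 and SLC2A3 had an adjusted p under 0.05 at log2 fold changes of 0.84, 0.78 and 0.54. VEGFA, the best known HIF target, measured 71.2 and 76.3 CPM in E8 and 79.4 and 86.6 CPM in mTeSR (log2 0.17, adjusted p = 0.628), and EGLN3 had the only negative value of the list, -0.21. The call of P4HA2 was lost without E8 replicate 1 (log2 0.85) or mTeSR replicate 2 (0.991).

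Of 21 tested genes of glycolysis and lactate export, 6 were called higher in mTeSR and none lower, beside 0.630% of all genes tested that were called higher. The median was 0.39, and 20 of the 21 values were positive, beside 8290 positive and 8336 negative values over all genes tested. PFKFB4, which sets the level of the glycolytic activator fructose 2,6-bisphosphate, was at 4.83 and 4.55 CPM in E8 and at 21.5 and 29.7 CPM in mTeSR (log2 2.44, SE 0.323, adjusted p = 8.41e-06). SLC16A3, the lactate exporter MCT4, was at 19.6 and 13.2 CPM in E8 and at 60.6 and 70.1 CPM in mTeSR (log2 2.00, adjusted p = 2.28e-06). LDHA, which turns pyruvate into lactate, was at 524 and 471 CPM in E8 and at 940 and 1102 CPM in mTeSR (log2 1.04, adjusted p = 0.000259). None of the 3 overlapped between the media. The enolase ENO2, the aldolase ALDOC and the hexokinase HK2 were called at log2 fold changes of 1.32, 1.19 and 1.00. PGK1, GPI and PFKFB3 had an adjusted p under 0.05 with 0.69, 0.69 and 0.66. The remaining enzymes of the main path differed less, and GAPDH was at 1088 and 1108 CPM in E8 and at 1245 and 1295 CPM in mTeSR (log2 0.21, adjusted p = 0.470). LDHB and the monocarboxylate transporter SLC16A1 had values of 0.01 and -0.02. The call of LDHA was lost without E8 replicate 2 (log2 0.96) or mTeSR replicate 2 (0.92), that of HK2 without either of these (0.97 and 0.96), and that of ALDOC without E8 replicate 2 (0.998). HK2 was also under the threshold on size, at 0.995, with RLE size factors and with DESeq2. Among called genes outside the lists, FAM162A, PLOD2 and GYS1, chosen after their values were seen, were higher in mTeSR by 1.30, 1.34 and 1.00 on the log2 scale. PLOD2 hydroxylates collagen lysines, as P4HA1 and P4HA2 hydroxylate its prolines, and GYS1 is the muscle-type glycogen synthase.

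**Figure D3:**
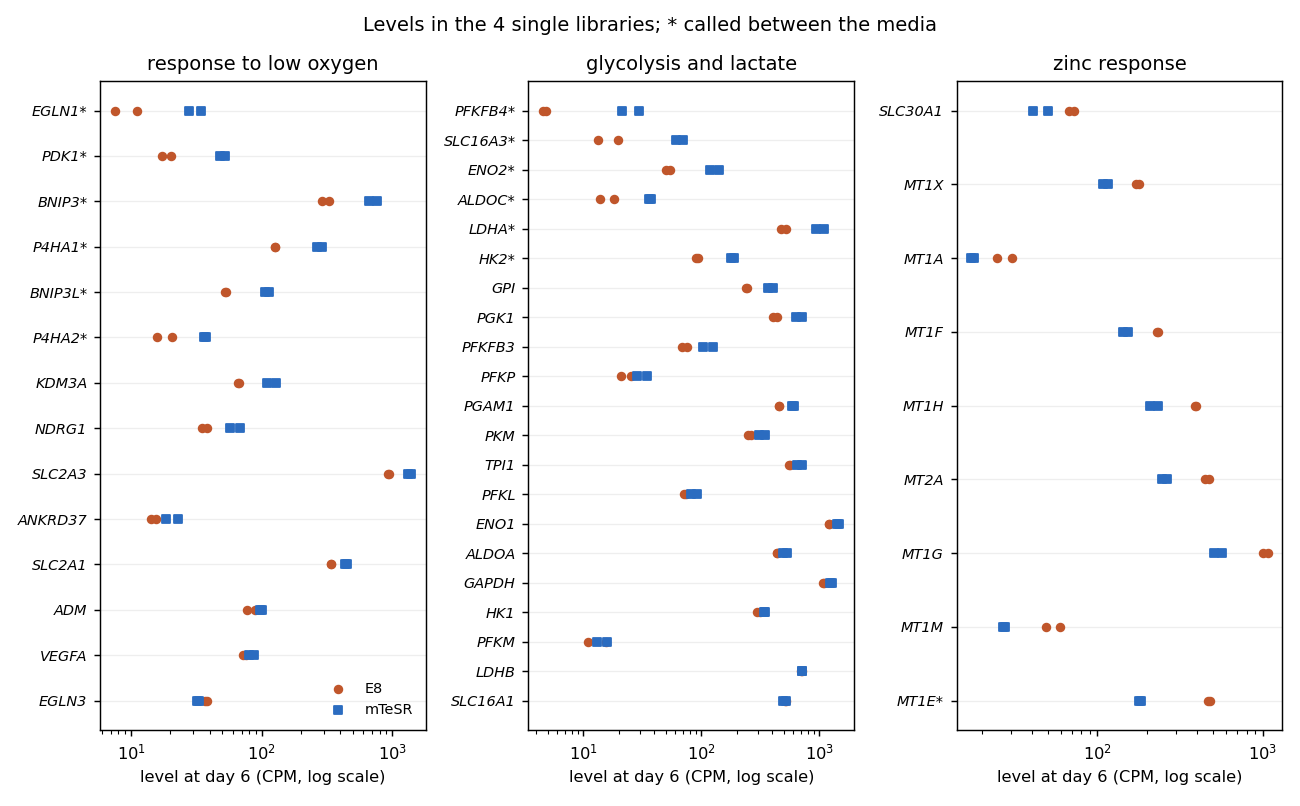
Levels in the 4 single libraries (CPM, log axis) of the tested genes of the low-oxygen response, of glycolysis and lactate export, and of the zinc response, E8 as orange circles and mTeSR as blue squares; an asterisk marks a called gene. In the first 2 panels the 12 called genes have both squares to the right of both circles, and in the third panel all 9 genes have both squares to the left.

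The 160 bases before the start site are shown for 4 of these genes, since the core letters of the HIF-binding element, ACGTG, occur in all 4. Capitals mark ACGTG or its reverse complement, and sequences are from RefSeq (GRCh38.p14), each on the strand of the gene: BNIP3 at chr10:131981924-131982083 (minus), P4HA1 at chr10:73096867-73097026 (minus), ENO2 at chr12:6914420-6914579 (plus) and LDHA at chr11:18394403-18394562 (plus).
BNIP3: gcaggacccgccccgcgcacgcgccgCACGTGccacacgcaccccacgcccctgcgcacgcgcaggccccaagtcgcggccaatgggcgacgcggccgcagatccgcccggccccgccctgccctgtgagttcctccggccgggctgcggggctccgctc
P4HA1: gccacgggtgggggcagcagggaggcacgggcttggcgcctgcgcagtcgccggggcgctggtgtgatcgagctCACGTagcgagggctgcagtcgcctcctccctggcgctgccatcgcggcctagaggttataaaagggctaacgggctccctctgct
ENO2: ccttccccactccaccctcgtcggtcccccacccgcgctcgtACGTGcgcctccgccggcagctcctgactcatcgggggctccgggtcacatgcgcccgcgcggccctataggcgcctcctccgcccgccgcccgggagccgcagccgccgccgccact
LDHA: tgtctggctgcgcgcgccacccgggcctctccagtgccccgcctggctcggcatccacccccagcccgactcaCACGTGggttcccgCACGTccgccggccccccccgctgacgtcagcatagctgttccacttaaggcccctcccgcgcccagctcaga
The match in P4HA1 begins 86 bases before the start and that in ENO2 118 bases before it, and the palindrome CACGTG in BNIP3 and LDHA counts on both strands. Of the 12 called genes of both lists, 11 had a RefSeq promoter window, and 9 of these 11 had ACGTG in at least 1 window. Counted by windows, it was in 10 of 18 (55.6%) of the called genes, and over all members in 6 of 13 (46.2%) of the low-oxygen list and 17 of 45 (37.8%) of the glycolysis list, compared with 21.4% of all 35116 windows. The motif is short and is also part of the E-box that other factors bind, so that the match is a description only.

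Single reporters of sugar and lipid supply were also called higher in mTeSR, 1 of 2 tested glucose-sensing genes and 2 of 12 tested lipid-sensing genes, against 0.630% of all genes tested. TXNIP, an arrestin that restrains glucose uptake and is induced by glucose through MLXIP and MLX, was at 34.1 and 34.4 CPM in E8 and at 126 and 111 CPM in mTeSR (log2 1.79, SE 0.153, adjusted p = 2.99e-09). Its paralog ARRDC4, the other gene of the list, was at 0.483 and 1.82 CPM in E8 and at 3.54 and 3.88 CPM in mTeSR and did not pass the test (log2 1.65, adjusted p = 0.129). ANGPTL4, a lipase inhibitor induced by fatty acids through PPARs and also by HIF, was at 6.04 and 2.28 CPM in E8 and at 18.1 and 15.7 CPM in mTeSR (log2 2.03, adjusted p = 0.00128). PLIN2, the coat protein of lipid droplets, was at 54.1 and 47.1 CPM in E8 and at 104 and 101 CPM in mTeSR (log2 1.02, adjusted p = 0.000225). The libraries of the media did not overlap for any of these 4 genes. ANGPTL4 and PLIN2 were the 2 lipid-sensing genes called, and the list had 6 positive and 6 negative values with a median of 0.04. No gene of sterol synthesis (24 tested, median 0.02) or of fatty acid synthesis (13 tested, median -0.09) was called, beside 1.10% of all genes tested. INSIG2, which holds the sterol sensor SCAP in the endoplasmic reticulum, was at 6.28 and 9.56 CPM in E8 and at 29.4 and 28.2 CPM in mTeSR, and was among the 12 largest rises (log2 1.85, adjusted p = 3.50e-05). Without E8 replicate 2 the call of ANGPTL4 was lost (adjusted p = 0.123), as was that of PLIN2 (log2 0.92), which was also lost without mTeSR replicate 1 (0.999).

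All 9 tested members of the zinc response list, which holds 8 metallothioneins and the zinc exporter SLC30A1, had negative values, with a median of -0.83. For 8 of the 9 the adjusted p was under 0.05, beside 1.28% of all genes tested that were lower at this limit, and MT1A was the exception (log2 -0.64, adjusted p = 0.101). MT1E alone also passed the threshold on size. MT1E (GRCh38 chr16:56625475-56627112, plus strand) was at 470 and 481 CPM in E8 and at 178 and 183 CPM in mTeSR, a log2 fold change of -1.40 (SE 0.124, adjusted p = 5.45e-09). MT1G, the most abundant of them, was at 1071 and 1005 CPM in E8 and at 506 and 570 CPM in mTeSR (log2 -0.95, adjusted p = 5.77e-08). MT2A was at 474 and 449 CPM in E8 and at 245 and 264 CPM in mTeSR (log2 -0.86, adjusted p = 1.41e-06). In each of the 3 genes both mTeSR libraries were far below both E8 libraries. SLC30A1 was at 66.9 and 71.7 CPM in E8 and at 40.9 and 50 CPM in mTeSR, a smaller difference in the same direction (log2 -0.61, adjusted p = 0.00894). MT3, MT1B and the pseudogene MT1L lie outside the list and were chosen after their values were seen. MT1B was called lower, with 9.42 and 11.6 CPM in E8 and 2.88 and 3.45 CPM in mTeSR (log2 -1.73, adjusted p = 0.0161), a call that was lost without any one of the 4 libraries (adjusted p of 0.0521 to 0.186). MT1L was also called lower (log2 -1.67, adjusted p = 0.0297). MT3 was called in the other direction, with 0 and 0 CPM in E8 and 2.43 and 2.80 CPM in mTeSR, at least 3.72-fold higher (adjusted p = 0.0160). The pseudogene MT1JP was among the 12 largest falls (log2 -1.49, adjusted p = 0.000625), with 31.2 and 37.8 CPM in E8 and 12.4 and 12.1 CPM in mTeSR. Metallothioneins share most of their sequence, so that reads could be split among them and the value of any single one is less certain than that of the group.

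The sequences before MT2A (chr16:56608424-56608583) and MT1X (chr16:56682310-56682469) are shown, both on the plus strand of GRCh38.p14 in RefSeq. Capitals mark TGCGCNC on either strand, a form of the core of the metal response element that MTF1 binds. Other forms of the core were not searched, so that unmarked letters may hold further matches to it.
MT2A: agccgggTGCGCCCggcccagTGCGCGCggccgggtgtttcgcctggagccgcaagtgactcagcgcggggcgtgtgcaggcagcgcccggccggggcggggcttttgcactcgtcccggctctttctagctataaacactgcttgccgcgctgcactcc
MT1X: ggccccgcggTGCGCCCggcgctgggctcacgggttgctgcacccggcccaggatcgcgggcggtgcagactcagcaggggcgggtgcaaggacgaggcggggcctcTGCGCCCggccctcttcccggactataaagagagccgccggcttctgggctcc
The matches begin 153 and 139 bases before the start of MT2A and 150 and 53 bases before that of MT1X. Of the 4 members of the list with a RefSeq window, 3 held TGCGCNC, and 20% of all windows did.

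Other genes that were lower in mTeSR included the largest fall among well-expressed genes, AL591742.2, a gene known by a clone name for which no position was found by symbol. It was at 192 and 185 CPM in E8 and at 35.4 and 29.7 CPM in mTeSR (log2 -2.53, SE 0.197, adjusted p = 7.36e-10). SYTL2, a Rab27 effector of vesicle transport, fell from 24.6 and 17.1 CPM in E8 to 5.75 and 4.96 CPM in mTeSR (log2 -1.95, adjusted p = 0.000529). MME, the cell-surface peptidase neprilysin, measured 37.0 and 40.3 CPM in E8 and 11.1 and 12.9 CPM in mTeSR (log2 -1.68, adjusted p = 2.90e-07). None of the 3 overlapped between the media. The glycosyltransferase GCNT4, the membrane protein TMEM64, the teneurin TENM1, the neuronal membrane protein SLITRK4 and the gene FAM9C fell by between 1.48 and 1.75 on the log2 scale. SNORD13, a small nucleolar RNA, fell by 1.56, but such RNAs lack a poly(A) tail and their reads in this protocol are uncertain. TRIM43B fell by 1.56 (adjusted p = 0.0442) and lost its call without any one of the 4 libraries (adjusted p of 0.0993 to 0.369), within libraries of the same experiment (0.0561) and with plain library totals (0.0510).

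Some genes of actin and myosin were called lower in mTeSR, and they were not tested as a list. ACTA1, the skeletal muscle actin, which SRF drives in many cells, was at 235 and 228 CPM in E8 and at 93.3 and 92.3 CPM in mTeSR (log2 -1.32, SE 0.166, adjusted p = 3.27e-06). MYL9, a regulatory light chain of non-muscle and smooth muscle myosin, was at 38.2 and 40.5 CPM in E8 and at 17.3 and 17.2 CPM in mTeSR (log2 -1.19, adjusted p = 0.000380). TMSB4X, which encodes the actin monomer-binding thymosin β4 and was chosen after its values were seen, was at 379 and 411 CPM in E8 and at 157 and 160 CPM in mTeSR (log2 -1.32, adjusted p = 1.20e-06). Each of the 3 genes was well separated between the media. TMSB4XP4, a processed pseudogene of TMSB4X with which reads could be shared, moved with it (log2 -1.48, adjusted p = 0.000225). The muscle actin ACTC1 and the tropomyosin TPM2, also chosen after their values were seen, had an adjusted p under 0.05 at -0.65 and -0.76. Of 13 tested YAP and TEAD targets none was called, and CTGF, LATS2, F3 and CYR61 had an adjusted p under 0.05 at -0.94, -0.61, -0.55 and -0.52, against 1.28% of all genes tested that were lower at this limit, with a median of -0.36 over the list. COL1A1, a fibrillar collagen, was at 69.1 and 59.0 CPM in E8 and at 29.4 and 32.1 CPM in mTeSR (log2 -1.06, adjusted p = 6.50e-05), whereas COL1A2, the other chain of the same collagen, was higher in mTeSR by 0.67 (adjusted p = 0.00181). The fibroblast markers COL3A1 and LUM had 0 counts in all 4 libraries, and 8 fibroblast markers, COL1A1 and COL1A2 among them, summed to 135 and 135 CPM in E8 and to 140 and 139 CPM in mTeSR. The call of COL1A1 was lost without E8 replicate 1 (log2 -0.94) or mTeSR replicate 1 (-0.994).

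The next 5 genes, all called lower in mTeSR, were chosen after their values were seen and stand for no group, since other genes of secreted signals, such as CER1, LEFTY2 and ANGPTL4, were called higher. EDN1, which encodes the peptide endothelin 1, was at 16.9 and 17.8 CPM in E8 and at 4.20 and 4.53 CPM in mTeSR (log2 -1.98, adjusted p = 0.000143), and EDNRB, a receptor for endothelins, was at 34.8 and 35.3 CPM in E8 and at 11.7 and 13.8 CPM in mTeSR (log2 -1.45, adjusted p = 0.000192). The chemokine CXCL1 was at 12.1 and 13.7 CPM in E8 and at 2.43 and 3.45 CPM in mTeSR (log2 -2.12, adjusted p = 0.00112). All 3 genes were lower in both mTeSR libraries than in either E8 library. ESRG, a long non-coding RNA abundant in human pluripotent cells, was at 609 and 613 CPM in E8 and at 307 and 299 CPM in mTeSR (log2 -1.01, adjusted p = 2.78e-07). LINC-ROR, another such RNA, was at 14 and 17.3 CPM in E8 and at 3.32 and 7.54 CPM in mTeSR (log2 -1.52, adjusted p = 0.0101). The call of ESRG was lost without mTeSR replicate 2 (log2 -0.993) and with plain library totals (-0.97), that of LINC-ROR without E8 replicate 2 (adjusted p = 0.162) or mTeSR replicate 1 (0.292), and that of CXCL1 without mTeSR replicate 1 (0.0549).

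Further rises among the 12 largest were those of FCGBP, a large mucin-like protein, MAGI2, a junctional scaffold, TMEM45A and PRELID2. FCGBP was at 9.66 and 11.4 CPM in E8 and at 47.1 and 52.2 CPM in mTeSR (log2 2.23, adjusted p = 8.30e-08). MAGI2 was at 10.6 and 13.2 CPM in E8 and at 41.6 and 43.5 CPM in mTeSR (log2 1.83, adjusted p = 1.20e-06). Both were separated between the media by several times the gap between replicates, and TMEM45A and PRELID2 were higher by 1.95 and 1.75 on the log2 scale. Over the lists as a whole, 27 of 431 distinct genes tested were called higher and 5 lower, against 0.630% and 0.474% of all genes tested, and 152 of the 184 called genes belonged to no list. No gene was called in the lists of neural, amnion, matrix, epithelial-mesenchymal, cell cycle, p53, iron, redox or ATF4 genes, beside 1.10% of all genes tested. The ATF4 list had 21 of 23 positive values at a median of 0.17, beside 8290 positive and 8336 negative values over all genes tested. In it STC2 and DDIT4 had an adjusted p under 0.05 (log2 0.85 and 0.67), against 1.38% of all genes tested that were higher at this limit. The fibroblast list had MMP2 (log2 1.57) called beside COL1A1. The call of MMP2 was lost without any one of the 4 libraries (adjusted p of 0.134 to 0.318), with DESeq2 (0.192) and within libraries of the same experiment (0.0507).

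**Figure D4:**
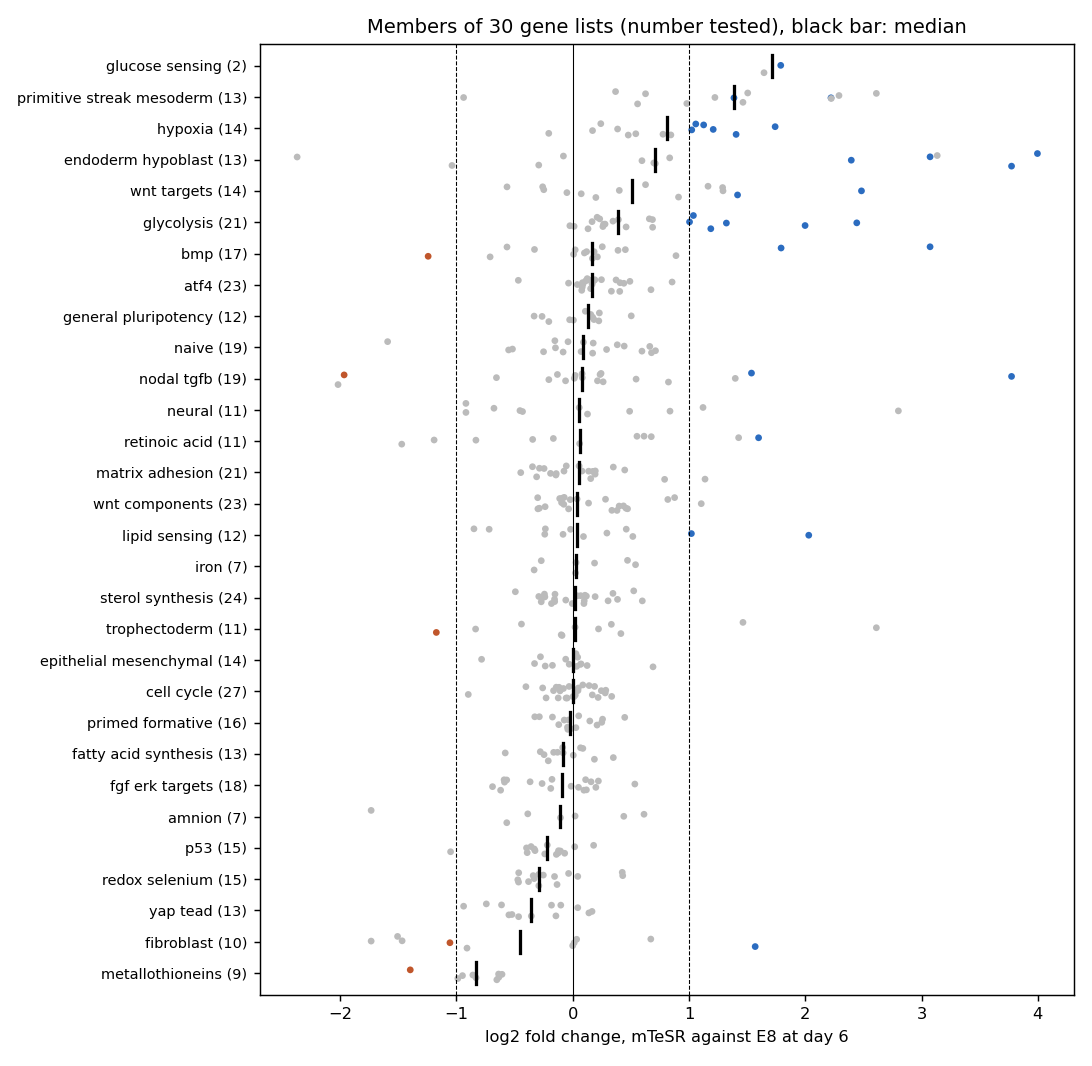
Log2 fold change in mTeSR over E8 at day 6 of each tested member of the 30 lists, ordered by their median (black bar), with called genes in blue (higher) and orange (lower) and dashed lines at 1 in either direction; a gene may be in more than 1 list. The lists of low-oxygen and glycolysis genes hold 6 blue points each, and the 9 points of the metallothionein list all lie left of 0.

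The same media were compared at days 4 and 8 in libraries that day 6 did not use. At day 4, 14 genes were called (0.0840%), 1 higher (0.00600%) and 13 lower (0.0780%) in mTeSR, and at day 8, 885 genes were called (5.31%), 419 higher (2.51%) and 466 lower (2.79%). Of the 105 genes higher at day 6, 85 had a positive value at day 4 and 102 at day 8, where 79 were called. Of the 79 genes that were lower, 68 had a negative value at day 4 and 74 at day 8, where 54 were called. No gene called at day 6 was called in the opposite direction at another day. The 133 genes called in the same direction at days 6 and 8 made up 72.3% of the day 6 calls and 15.0% of the day 8 calls, and the 9 shared with day 4 made up 4.89% of the day 6 calls and 64.3% of the day 4 calls. For the genes higher at day 6, the median log2 fold change was 0.36 at day 4, 1.51 at day 6 and 1.55 at day 8, and for the lower ones -0.61, -1.47 and -1.39, where the day 6 medians carry the choice of the genes. The 9 genes shared by all 3 days were TXNIP, which was higher, and AL591742.2, MT1E, MT1JP, TMEM64, TMSB4XP4, ESRG, EDNRB and AC005062.1, which were lower, the last named only for being shared. mTeSR replicate 2 of day 4 was nearer to E8 replicate 2 of day 4 than to its own replicate. At day 4 the calls were 8 and 5 without mTeSR replicates 1 and 2 and 5 and 6 without E8 replicates 1 and 2, and at day 8 they were 472 without mTeSR replicate 2 and 431 without E8 replicate 1. E8 replicate 2 of day 8 was nearer to a day 6 library of E8 than to its own replicate, and without it 1169 genes were called at day 8.

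**Figure D5:**
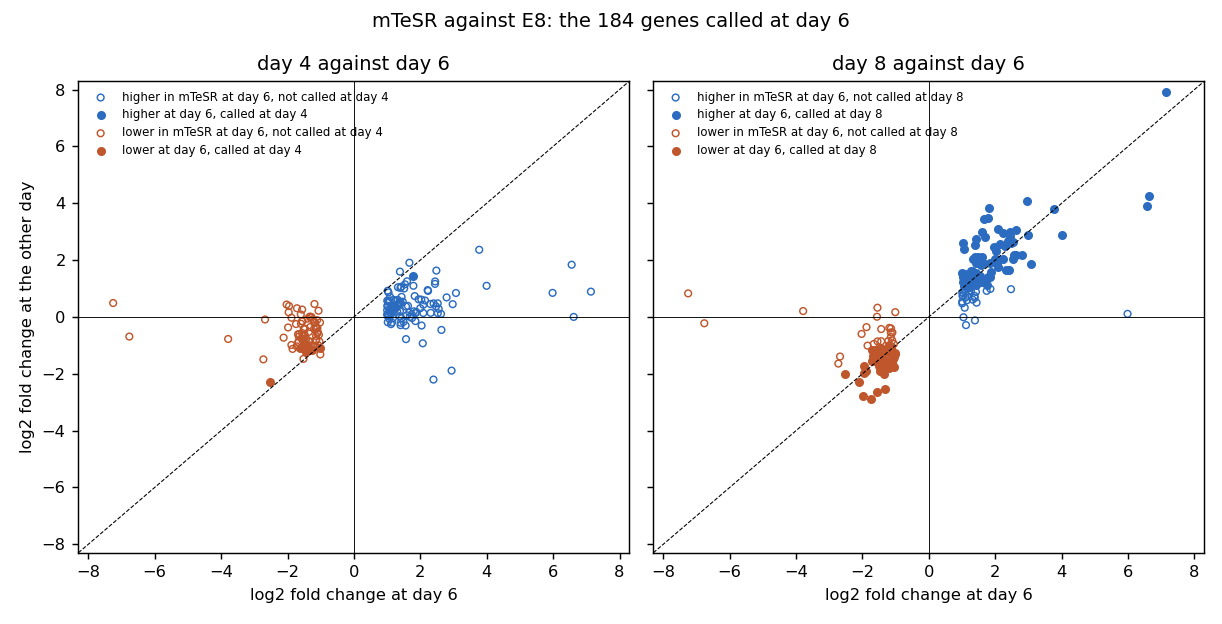
Log2 fold change in mTeSR over E8 at day 6 (x axis) of the 184 genes called at day 6 against their log2 fold change at day 4 (left) and day 8 (right), with filled points for genes also called at the other day and the dashed line at equal values. At day 4 most points lie nearer to 0 than the line, with 9 filled, and at day 8 they scatter around the line, with 133 filled.

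The difference between media itself changed from day 4 to day 6 at 15 genes (interaction term, 0.0900% of genes tested). It moved upwards at 10 genes (0.0600%). PDK1 was at 16.7 and 15.2 CPM in E8 and at 12.2 and 13.8 CPM in mTeSR at day 4, a difference that did not pass the test (log2 -0.29, adjusted p = 0.768), and the change to day 6 was 1.69 on the log2 scale (adjusted p = 0.0144). MXI1, a MAX partner that opposes MYC and is induced by HIF, was at 16.7 and 19.5 CPM in E8 and at 15.8 and 16.4 CPM in mTeSR at day 4, and at 16.2 and 15.9 CPM in E8 and at 49.3 and 41.2 CPM in mTeSR at day 6, a change of 1.67 (adjusted p = 0.00329). P4HA1 and BNIP3L, also of the low-oxygen list, changed by 1.00 and 1.02. The difference moved downwards at 5 genes (0.0300%), among them BMP4, which at day 4 was at 56.8 and 65.3 CPM in E8 and at 50.8 and 64.3 CPM in mTeSR, with overlapping groups, and the change to day 6 was -1.16 (adjusted p = 0.00417). MYL9 was at 13.4 and 12.4 CPM in E8 and at 15.5 and 19.8 CPM in mTeSR at day 4, where its difference did not pass the test (log2 0.45, adjusted p = 0.547), and the change to day 6 was -1.64 (adjusted p = 0.0144). Without single libraries of days 4 and 6 the number of such genes was 2 to 8 (8 and 2 without mTeSR replicates 1 and 2 of day 6, 3 and 4 without E8 replicates 1 and 2 of day 6, 5 and 2 without mTeSR replicates 1 and 2 of day 4, and 7 and 2 without E8 replicates 1 and 2 of day 4). From day 6 to day 8 the difference changed at 8 genes (0.0480%), of which P3H2 moved upwards.

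At the metallothioneins of the list, the change of the difference from day 4 to day 6 did not pass the test for any member. Since 0.0900% of all genes tested were called for such a change, this does not set the list apart. The log2 difference of MT1E was -1.01 at day 4 and -1.40 at day 6. MT1E was at 652 and 616 CPM in E8 and at 312 and 318 CPM in mTeSR at day 4, and at 274 and 333 CPM in E8 and at 102 and 95.4 CPM in mTeSR at day 8, with both mTeSR libraries under both E8 libraries at each day. The median of the list was -0.65 at day 4, where MT1E and MT1M were called. For the low-oxygen list the median was 0.11 at day 4 with no call, and at day 8 the list had 5 calls among 14 tested genes, all higher. Of 13 tested genes each, the streak list had 9 calls at day 8 and the endoderm list 8, all higher in mTeSR. At day 8, 2.51% of all genes tested were called higher. Neither list had a call at day 4, where 0.00600% of all genes tested were called higher. The day 4 median was already 0.57 for the streak list and was 0 for the endoderm list. SOX17 reached 6.56 and 4.47 CPM in E8 and 35.8 and 35.3 CPM in mTeSR at day 8, and FOXA2 3.0 and 2.59 CPM in E8 and 22 and 20.2 CPM in mTeSR, 2 genes that were near the floor in E8 at day 6.

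N2B27, sampled in the same experiment, is a basal medium without added FGF or TGFβ/Activin-type signal. It has a composition of its own, so that it is another medium to set beside E8 and mTeSR, not a control for growth factors. Against N2B27 at day 6, 881 genes were called in E8 (5.28%) and 437 in mTeSR (2.62%); these counts share the N2B27 libraries with each other and the E8 or mTeSR libraries with the comparison above. Without E8 replicate 2 the first count was 523, and without mTeSR replicate 2 or N2B27 replicate 2 the second was 221 or 256. SP5 was at 88.8 and 87.1 CPM in N2B27, beside about 18 CPM in E8 and 96.4 and 108 CPM in mTeSR. MIXL1 was at 91.9 and 105 CPM in N2B27, above both media. CER1 was at 17.3 and 17.5 CPM, EOMES at 30.4 and 38.3 CPM and LEFTY2 at 34.0 and 32.4 CPM, in each case above E8. BMP4 was at 77.7 and 81.0 CPM, below E8 and a little below mTeSR. MT1E was at 180 and 170 CPM in N2B27, beside 178 and 183 CPM in mTeSR, whereas E8 stood apart. P4HA1, at 364 and 344 CPM, and TXNIP, at 234 and 191 CPM, were highest in N2B27, then in mTeSR and lowest in E8, and for BNIP3, at 585 and 581 CPM, and LDHA, at 786 and 858 CPM, mTeSR was highest and N2B27 between the media. ACTA1 was at 59.6 and 63.5 CPM in N2B27, the lowest of the 3 media.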

How the data were processed

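The authors prepared QuantSeq 3′ libraries from polyadenylated RNA and deposited a table of raw gene counts, which are the estimated counts of Salmon 1.9.0 (STAR 2.7.10a alignment to hg38, nf-core/rnaseq workflow) summed to genes with tximport. The annotation release and the strand setting are not given in the sources used here. The deposited values are whole numbers, and the table lists 57133 genes by symbol. No column of per-sample values was left unused (0).

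Tests used edgeR 4.0.16 and limma 3.58.1 under R 4.3.3, on 16674 genes that passed filterByExpr and held 99.65% of counts, with TMM scaling. All 38 libraries entered 1 quasi-likelihood fit of 19 groups of 2, and contrasts were adjusted after Benjamini-Hochberg over all genes tested. The spread between replicates is therefore shared by all groups (common dispersion 0.010). SE were derived from the F statistic. Scripts were tested on simulated data. DESeq2 1.42.0, other scalings and filters, fits to fewer libraries, the replicate number as a block, and fits without single libraries were the other settings.

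The comparison, the 30 gene lists and the naming rule were chosen with earlier results of these data known. The rule named the 12 largest rises and 12 largest falls among called genes with at least 20 CPM in the higher medium and no overlap, up to 3 genes each way per test of change, and the members of the lists. Some listed genes are left out of the text. For any other gene the report says that it was picked with its values known, and all genes called in a test of change are named in the closing section. Gene positions were taken from GENCODE 44 (GRCh38) by symbol, and 172 of 187 symbols had 1 position.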

Additional observations from a re-analysis of the deposited data

Results flagged for a closer look

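The difference between mTeSR and E8 changed from day 4 to day 6 at 15 genes by the interaction term of the edgeR fit (adjusted p under 0.05 and a change above 1 on the log2 scale). It moved upwards at RORA, a nuclear receptor (1.86), PDK1 (1.69), MXI1 (1.67), NRN1, which encodes the membrane-anchored neuritin (1.62), NDRG1 (1.39), FAM162A (1.12), TPD52 (1.07), PGM1, an enzyme of glycogen metabolism (1.05), BNIP3L (1.02) and P4HA1 (1.00). PDK1, NDRG1, BNIP3L and P4HA1 belong to the list of the low-oxygen response, of which 14 genes were tested, and 0.0600% of all genes tested moved upwards. NRN1 was at 14.4 and 17.0 CPM in E8 and at 12.7 and 14.5 CPM in mTeSR at day 4, and at 21.5 and 18.7 CPM in E8 and at 48.7 and 58.0 CPM in mTeSR at day 6. The difference moved downwards at TPM2 (-1.05), ACTC1 (-1.13), BMP4 (-1.16), MYL9 (-1.64) and CCDC81 (-1.85). CCDC81 went from 35.7 and 29.4 CPM in E8 and 30.6 and 33.2 CPM in mTeSR at day 4 to 17.6 and 17.1 CPM in E8 and 4.65 and 4.74 CPM in mTeSR at day 6, and was at 7.12 and 5.89 CPM in E8 and at 6.24 and 3.92 CPM in mTeSR at day 8.

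From day 6 to day 8 the difference changed at 8 genes (0.0480% of genes tested). It moved upwards at P3H2, a prolyl hydroxylase of collagen (1.75), which was at 9.18 and 12.8 CPM in E8 and at 16.6 and 16.6 CPM in mTeSR at day 6, and at 11.2 and 16.5 CPM in E8 and at 69.2 and 70.2 CPM in mTeSR at day 8. It moved downwards at CCNA1 (-1.05), ACTC1 (-1.11), FAM129A (-1.14), ACTA1 (-1.20), ATF5 (-1.57), ALDH1L2 (-1.66) and INHBE (-1.97). ATF5 and ALDH1L2 belong to the list of targets of the amino acid stress factor ATF4, of which 23 genes were tested. INHBE was at 16.2 and 16.4 CPM in E8 and at 22.6 and 23.1 CPM in mTeSR at day 6, and at 39.0 and 37.9 CPM in E8 and at 15.5 and 12 CPM in mTeSR at day 8, and its day 6 difference did not pass the test (log2 0.49, adjusted p = 0.304). Without E8 replicate 2 of day 8, the library that stood apart from its replicate, 148 genes changed between these days, and without other single libraries of days 6 and 8 the number was 1 to 8 (8 without mTeSR replicate 1 of day 8, 1 without mTeSR replicate 2 of day 8, 2 without E8 replicate 1 of day 8, 2 and 4 without mTeSR replicates 1 and 2 of day 6, and 5 and 3 without E8 replicates 1 and 2 of day 6).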

How the results depend on the processing

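The 184 calls at day 6 became 122 with DESeq2, 348 when the 4 libraries were fitted alone and 444 with no threshold on the fold change, and lay between 104 and 117 without single libraries. Deviations from the group means correlated between the media at 0.16, 0.048 and 0.11 at days 4, 6 and 8 over 7127 genes. With 2 libraries per medium these values cannot settle whether the replicate numbers paired the samples. The fit as reported used no pairing. With a replicate block, 188 genes were called in the fit of all libraries and 378 in the fit of the 4 alone. At day 4, the 14 calls became 9 with plain library totals, 58 with no filter on low counts, 7 within libraries of the same experiment, 60 with the replicate block in the compared libraries alone and 37 with no threshold on the fold change, and lay between 5 and 8 without single libraries. At day 8, the 885 calls became 516 in the compared libraries alone and 2347 with no threshold, and lay between 431 and 1169 without single libraries. The 15 changes from day 4 to day 6 became 55 with no filter, 40 in the compared libraries alone and 45 with the replicate block there, and lay between 2 and 8 without single libraries. The 8 changes from day 6 to day 8 became 85 with no filter, 15 with DESeq2, 5 within the same experiment and 2 in the compared libraries alone, and lay between 1 and 148 without single libraries. Against N2B27 at day 6, the calls became 1510 for mTeSR and 2647 for E8 with no threshold, and lay between 221 and 319 and between 523 and 719 without single libraries. A threshold removed or a library left out changes the counts by construction; the cause of the other shifts was not tested. Among genes called both as reported and under another setting, 0 had the opposite direction. The adjusted p alone depended on the setting. For POU5F1, NANOG, KLF4, TBXT, LEFTY1 and GAPDH it was under 0.05 in at least 1 other setting, with log2 fold changes under 1 in size. Of 118 genes followed, FOXA2 and CDX2 through 12 settings and the others through 14, 1536 of 1648 values kept their side of the thresholds and direction, 70 no longer passed, 42 newly passed and 0 reversed, and 45 of the 70 called ones were called under every setting. The limits are those of depth and design: at 4180778 to 4554903 counts per library, genes at or under 3 counts could not be placed, and the 2 parallel libraries per medium came from 1 cell line and 1 experiment.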
